A study of Mus musculus with 6 samples.

Results

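CD8-negative T cells are the T cells of the obstructed mouse kidney in which no UMI of either CD8 chain was counted. A barcode was taken as a member when it had at least 200 genes and at most 50% mitochondrially encoded UMIs, at least 2 UMIs in all of the T cell receptor genes Cd3e, Cd3d, Cd3g and Trac, 0 UMIs of Cd8a and Cd8b1, and at most 5 UMIs of the macrophage genes C1qa, C1qb and C1qc. In all, 773 of 25978 barcodes met the rule, and 23578 barcodes passed its first 2 conditions. The levels of the genes named in the rule are therefore no result. The data come from 6 C57BL/6 mice, each of which had 1 ureter tied off and gave its obstructed kidney 7 days later. There were 3 mice treated with SH045 and 3 treated with Vehicle, and the obstruction is shared by both groups. The title of the series names TRPC6, a receptor-operated calcium channel, as the inhibited target. Each library is 1 kidney sample of 1 mouse, dissociated at 37 °C and loaded for droplet capture on Singleron GEXSCOPE beads with 6000 cells as the target, and the labels give no age or sex for the mice.

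T cells that lack CD8 are mostly CD4 helper cells, which read peptides on class II molecules and steer other immune cells through cytokines. Regulatory T cells are the CD4 cells that carry the transcription factor Foxp3 and restrain inflammation. Gamma-delta T cells use another receptor, whose delta constant chain is encoded by Trdc, and many live in tissues and react quickly to damage. In a kidney with a blocked ureter, T cells gather in the interstitium together with macrophages while fibroblasts lay down matrix.

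The 6 libraries held between 21186872 and 32256602 UMIs. Members numbered 175, 131 and 148 in SH045 libraries 1, 2 and 3, and 82, 85 and 152 in Vehicle libraries 1, 2 and 3. The median member had between 2814 UMIs (Vehicle 1) and 6354 UMIs (Vehicle 2), and the median mitochondrial share lay between 2.27% and 3.08%. Vehicle 3 stood apart from the other libraries in its Trdc-positive cells, so the 4 shares are also given without it. A total of 209 barcode sequences occurred in more than 1 library. Of the members, 9 carried such a sequence, and 0 sequences were shared by members of different libraries. In the top 5% of Scrublet doublet scores lay 73 members, which were kept here.

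The label held for most members but not for those with the fewest T cell UMIs. Among the 613 members with at least 5 UMIs of the 4 T cell genes, 94.1% had a UMI of Ptprc, the pan-leukocyte phosphatase CD45, and 91.4% had one of Trbc2, a T cell receptor beta constant chain that the rule did not use. Among the 160 members with 2 to 4 T cell UMIs these shares were 55.0% and 32.5%, and 58.8% of those cells held a UMI of Cdh16, Epcam or Lrp2, genes of the kidney tubule. The tubule share was 14.2% at 5 or more T cell UMIs and 14.1% in CD8-positive T cells chosen by the same rule with at least 1 CD8 UMI.

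At the edge of the rule, the 102 members with exactly 2 T cell UMIs had a UMI of Ptprc in 41.2%, of Trbc2 in 21.6% and of a tubule gene in 64.7%. The 575 barcodes just outside, with 1 T cell UMI, had them in 35.8%, 4.0% and 72.0%. At the C1q limit there were 17 members with 4 or 5 C1q UMIs and 9 barcodes just outside with 6 or 7, and 488 members had none. A further 64 barcodes stayed outside through a single CD8 UMI, and 17.2% of them had a UMI of Cd4. Results are given below both over all members and over the 613 with at least 5 T cell UMIs, a limit chosen after seeing the data.

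**Figure D1:**
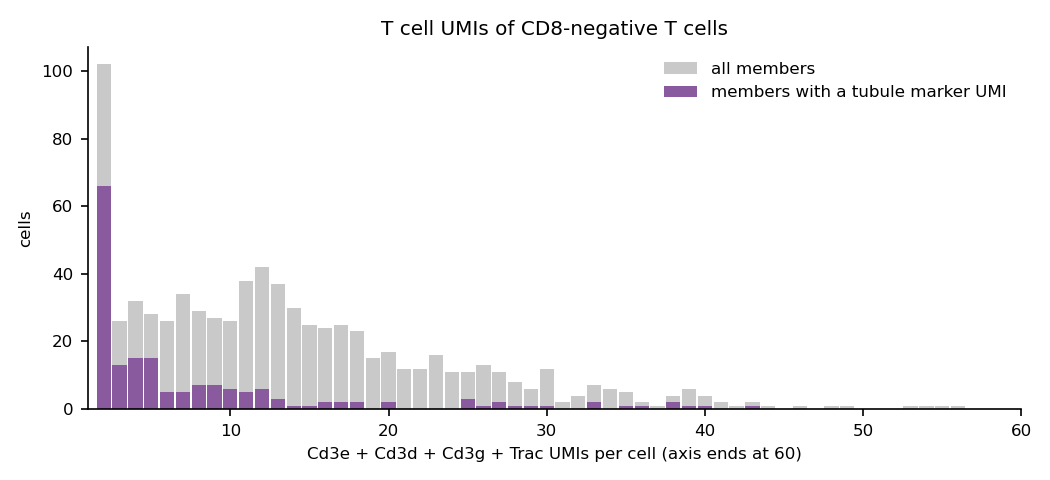
Number of CD8-negative T cells (vertical axis) by their summed UMIs of Cd3e, Cd3d, Cd3g and Trac (horizontal axis, ending at 60), with the cells that also hold a UMI of Cdh16, Epcam or Lrp2 overlaid. The 102 cells at 2 UMIs form the tallest bar, and 66 of them hold a tubule UMI, whereas the median cell has 12 T cell UMIs.

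Some CD8 T cells would show no CD8 UMI at a lower depth. When the 347 CD8-positive T cells of the 6 libraries were thinned to 2000 UMIs each, 40 of them (11.5%) kept 0 CD8 UMIs. By library this share ran from 5.77% in SH045 2 to 17.8% in Vehicle 3.

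Of the kept barcodes, CD8-negative T cells made up 5.12%, 3.29% and 4.08% in SH045 1 to 3, compared with 1.98%, 1.99% and 3.67% in Vehicle 1 to 3. Vehicle 3 overlapped the SH045 range, and Vehicle 1 and 2 lay below it. The means were 4.16% ± 0.917 (SD, n = 3) with SH045 and 2.55% ± 0.974 (SD, n = 3) with Vehicle, and the two-sided exact permutation p was 0.2 (0.4 adjusted over the 4 shares tested). With 3 mice against 3 this test cannot go below 0.1, and it measures only the spread between these mice. Without Vehicle 3 the Vehicle mean was 1.99% (exact permutation p = 0.2, then the smallest possible). Among members without any C1q UMI the groups did not overlap, at 4.12%, 2.26% and 2.70% against 1.28%, 0.868% and 1.67% (exact permutation p = 0.1). Only this choice of cells did so, and each other choice of cells gave an exact permutation p of 0.2. It took Vehicle 3 from 3.67% to 1.67% and SH045 1 from 5.12% to 4.12%, so it did not remove the same part of every library. These are shares of captured barcodes, so fewer T cells and more of other cells cannot be told apart.

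Cd4 (ENSMUSG00000023274, mm10 chromosome 6, 124864692 to 124888221), the co-receptor for class II molecules, had a UMI in 245 of 773 members. That is 31.7%, with an exact Clopper-Pearson 95% interval of 28.4% to 35.1%, which like all such intervals here covers counting error only. The share was 0.221% in barcodes with tubule genes (median 6376.5 UMIs), 3.92% in those of the macrophage gate (median 3550 UMIs) and 4.04% in CD8-positive T cells (median 3559 UMIs), against a median of 3782 UMIs in members. The Cd4 share was thus higher in members than in each of these groups. The tubule and macrophage barcodes were chosen to hold no UMI of the 4 T cell genes. Their shares, here and for Foxp3 and Trdc below, are therefore partly set by that choice, which was not made for the CD8-positive T cells.

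By library, 34.9%, 29.8% and 35.1% of members were Cd4-positive with SH045 and 23.2%, 42.4% and 25.0% with Vehicle. Vehicle 2, the deepest library per cell, was highest. After every member was thinned to 2000 UMIs, which removed 0 cells, the shares were 25.1%, 19.8% and 23.6% with SH045, compared with 15.9%, 18.8% and 11.2% with Vehicle. On that equal depth, drawn at random once, the groups no longer overlapped, and all 3 SH045 libraries lay above all 3 Vehicle libraries. The margin was narrow, with 19.8% in SH045 2 just above 18.8% in Vehicle 2. The thinned means were 22.9% ± 2.73 and 15.3% ± 3.85 (SD, n = 3 each), with an exact permutation p of 0.1, the smallest possible, and 0.4 adjusted over 4 shares.

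The Cd4 difference did not rest on the Trdc-positive cells: without them the thinned shares were 26.2%, 21.9% and 25.4% against 17.1%, 19.3% and 14.3%. At 5 or more T cell UMIs the means were 28.0% ± 2.81 and 18.1% ± 5.22 (SD, n = 3 each; exact permutation p = 0.1). Without Vehicle 3 the thinned Vehicle mean was 17.3%, still below the 22.9% with SH045 (exact permutation p = 0.2). The groups overlapped when members with any C1q UMI were left out (exact permutation p = 0.4) and when those with a tubule UMI were left out (0.2). Without thinning they overlapped at 1 or more Cd4 UMIs (exact permutation p = 0.8) and at 2 or more (0.4). The summed level of Cd4, in CPM (counts scaled to the same total of members' UMIs in every library), was 113, 122 and 136 with SH045 and 88.1, 91.2 and 91.3 with Vehicle. These levels did not overlap either, but the change of 0.39 on the log2 scale did not pass edgeR's quasi-likelihood test across all genes (adjusted p = 0.55).

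**Figure D2:**
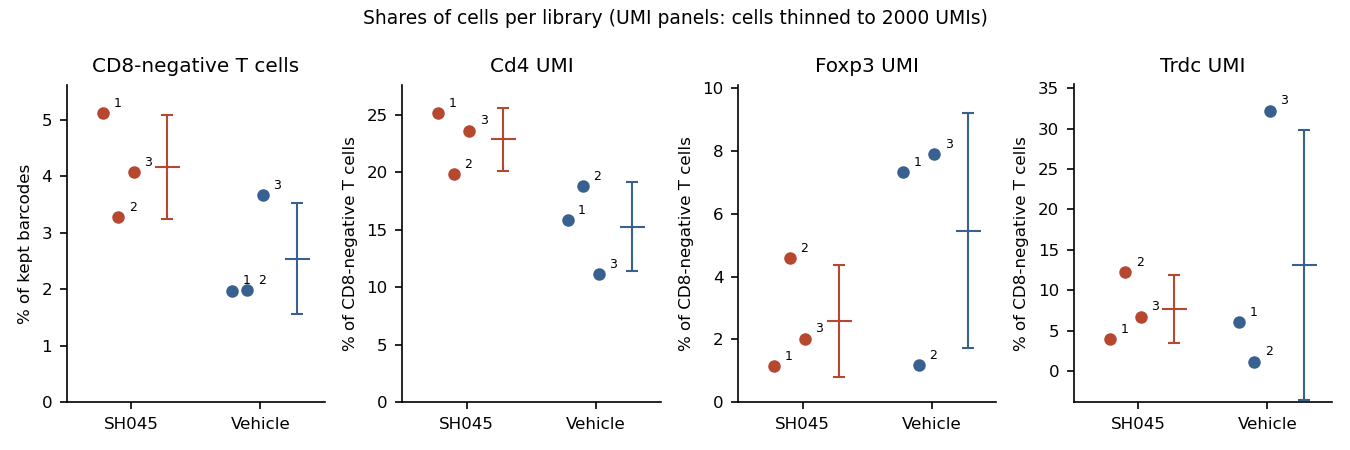
Shares in each of the 3 SH045 and 3 Vehicle libraries (points), with the mean and SD of each group: CD8-negative T cells as a percent of kept barcodes, and the percent of CD8-negative T cells with a UMI of Cd4, Foxp3 or Trdc after thinning each cell to 2000 UMIs. In this single random draw the Cd4 groups narrowly do not overlap (lowest SH045 library 19.8%, highest Vehicle library 18.8%). Vehicle 3 stands at 32.2% for Trdc, where the other 5 libraries lie at 12.2% or below.

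Cd4-positive members carried more transcripts of the conventional T cell receptor machinery than the other members. These values are a description, with no test. Trbc2 had a UMI in 93.5% of the 245 Cd4-positive cells and in 72.5% of the other 528. For Cd5 and Cd6, surface receptors that tune antigen receptor signals, the shares were 55.5% against 24.2% and 41.6% against 15.7%. Cd28, the main costimulatory receptor, stood at 41.6% against 18.2%, and Pdcd1, which encodes PD-1, at 25.7% against 10.04%.

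The cytotoxic genes differed among themselves. Gzma, a granule protease, had a UMI in 3.67% of Cd4-positive cells and 14.4% of the others, and was higher in Cd4-positive cells in 0 of 6 libraries. Ccl5, a chemokine of effector lymphocytes, was seen in 52.7% against 53.4% of cells, at 788 against 3016 CPM, and the level of the other cells was highest in Vehicle 3 (7698 CPM), the library with most Trdc-positive cells. Gzmk stood at 12.2% against 10.2% and Nkg7 at 58.4% against 53.2% of cells, with Gzmk higher in 4 and Nkg7 in 3 of 6 libraries. The 16 cell cycle genes summed to 9503 CPM in Cd4-positive cells and 4501 CPM in the rest, higher in 6 of 6 libraries, and Mki67, a marker of dividing cells, had a UMI in 46.9% against 28.4%. Cd4-positive cells also had more T cell UMIs (median 16, where members with none of Cd4, Foxp3 and Trdc had 8) and held a tubule UMI less often (13.1% against 32.2% in those). The part of that in these differences was not tested.

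Foxp3 (ENSMUSG00000039521, mm10 chromosome X, 7573644 to 7595245) had a UMI in 49 of 773 members, or 6.34% (exact interval 4.73% to 8.29%). It was seen in 0.0509% of tubule barcodes, 0.0736% of macrophage barcodes and 0.865% of CD8-positive T cells. By library 6, 8 and 5 members were Foxp3-positive with SH045, and 8, 4 and 18 with Vehicle. As shares of members these are 3.43%, 6.11% and 3.38% with SH045, compared with 9.76%, 4.71% and 11.8% with Vehicle.

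Vehicle 1 and Vehicle 3 lay above every SH045 library and Vehicle 2 lay among them. The means were 4.31% ± 1.56 and 8.77% ± 3.67 (SD, n = 3 each; exact permutation p = 0.2). After thinning to 2000 UMIs the shares were 1.14%, 4.58% and 2.03% against 7.32%, 1.18% and 7.89%, with means of 2.58% ± 1.79 and 5.46% ± 3.72 (exact permutation p = 0.3, 0.4 adjusted over 4 shares). Without the Trdc-positive cells the Vehicle 3 share was 12.2% and the exact permutation p was again 0.3. Without Vehicle 3 the thinned Vehicle mean was 4.25% (exact permutation p = 0.6). These counts of cells are small, and the shares did not differ beyond the spread between mice.

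The 49 Foxp3-positive cells carried the receptors known from regulatory T cells. With fewer than 10 such cells in 5 of 6 libraries no model was fitted, and the following shares describe pooled cells. Of the 49, 22 had a UMI of Cd4. Their median was 4869 UMIs and 17 T cell UMIs, where that of all members was 3782 and 12. At least 5 T cell UMIs were held by 95.9% of them, against 613 of all 773 members. The part of this in the shares was not tested. The costimulatory receptors Tnfrsf4 (OX40) and Tnfrsf18 (GITR) had a UMI in 79.6% and 69.4% of them, against 19.3% and 32.2% of the other 724 members. Ctla4, an inhibitory receptor that competes with Cd28, stood at 44.9% against 6.22%, and Il2ra, the high-affinity interleukin-2 receptor chain, at 26.5% against 6.35%.

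Ikzf2, which encodes the transcription factor Helios, had a UMI in 61.2% against 15.9%, and Izumo1r, the folate receptor 4 gene, in 61.2% against 18.0%. Klrg1, a receptor of terminally differentiated effector cells, was seen in 44.9% against 12.6%. Beside Foxp3, 13 genes of the regulatory list were compared by their summed level in each library. For 7 of them the level was higher in the Foxp3-positive cells in 6 of 6 libraries, namely Ctla4, Ikzf2, Ikzf4, Tnfrsf18, Tnfrsf4, Izumo1r and Klrg1. Il2ra was higher in 5 of 6, Tnfrsf9 and Ebi3 in 4 of 6, and Nrp1 in 2 of 6. Gpr83 and Il10, seen in 2 and 1 of the 49 cells, were higher in 2 and 1 of 6.

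Trdc (ENSMUSG00000104876, mm10 chromosome 14, 54142851 to 54148868) had a UMI in 96 of 773 members, or 12.4% (exact interval 10.2% to 14.9%). Its share was 0.272% in tubule barcodes, 0.189% in macrophage barcodes, 4.90% in CD8-positive T cells and 13.5% of the 133 barcodes of the natural killer gate. By library there were 7, 17 and 10 Trdc-positive members with SH045 and 6, 2 and 54 with Vehicle, so 54 of the 96 came from 1 mouse. After thinning, 4.00%, 12.2% and 6.76% of members were Trdc-positive with SH045, compared with 6.10%, 1.18% and 32.2% with Vehicle.

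The group means of 7.66% ± 4.18 and 13.2% ± 16.7 (SD, n = 3 each) did not differ beyond the spread between mice (exact permutation p = 0.9, also 0.9 after adjustment). The direction of the difference rested on Vehicle 3: without it the SH045 mean was higher by 4.02 points (exact permutation p = 0.4). The summed Trdc level ranged from 15.4 CPM in Vehicle 2 to 387 CPM in Vehicle 3, and the SH045 libraries lay between, at 46.4, 112 and 115.1 CPM (edgeR adjusted p = 0.76).

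The Trdc-positive cells of Vehicle 3 differed in kind from those of the other libraries. The genes named for this were chosen after their values were seen, and with 1 library on one side there is no test. Trac, the alpha constant chain of the conventional receptor, had a UMI in 44 of 54 cells of Vehicle 3 and in 11 of the 42 Trdc-positive cells of the other 5 libraries. Both Trac and Trbc1, a beta constant chain, were seen in 42 of 54 cells, against 5 of 42 elsewhere. Of those 42 cells the 17 of SH045 2 came closest, with 8 of the 11 cells holding Trac and 4 of the 5 holding both. Trgv2, a gamma variable gene, was seen in 39 of 54 against 11 of 42, and 33 of the 54 cells held Trac, Trbc1 and Trgv2 together. Because Trac counts toward the rule, its share is partly set by the choice of cells.

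Some receptors of natural killer cells marked the Vehicle 3 cells, and others did not. Klra3, an Ly49 receptor, had a UMI in 47 of 54 cells of Vehicle 3 and 0 of 42 elsewhere, and 51 of 54 held a UMI of Klra3, Klra7 or Klra9, against 2 of 7, 6 of 17 and 3 of 10 in SH045 1 to 3 and 0 in Vehicle 1 and 2. The Klra genes are near-identical copies, so the split of reads among them is uncertain. Among the Trdc-negative members of Vehicle 3, 4 had such a UMI. In the other libraries 25, 11 and 9 Trdc-negative members of SH045 1 to 3 and 8 and 3 of Vehicle 1 and 2 had one. Ncr1, another natural killer receptor, went the other way, in 1 of 54 against 5 of 42 cells. Klrb1c stood at 27.8 CPM in the Trdc-positive cells of Vehicle 3. In those of SH045 1 to 3 it was at 192, 27.6 and 201 CPM, and in those of Vehicle 1 and 2 at 0 and 63.6 CPM. Gzma was seen in 36 of 54 against 6 of 42 cells, Gzmb in 7 against 6, Itgae, the integrin CD103 that holds T cells at epithelia, in 20 against 3, and Ikzf2 in 26 against 5.

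Genes of interleukin-17 type gamma-delta cells were at or near 0 in the Vehicle 3 cells. Cd163l1, the scavenger receptor SCART1, was seen in 0 of 54 and 10 of 42 Trdc-positive cells, Ccr6, a chemokine receptor, in 0 and 5, and Il17a in 0 and 3, while Il23r, the interleukin-23 receptor chain, was seen in 1 and 2. Il7r, the interleukin-7 receptor chain, was seen in 4 against 14. The median Trdc-positive cell of Vehicle 3 had 4178 UMIs, 1 of the 54 had a high Scrublet score and 5 held a tubule UMI. In 4 of the 54 the call rested on a single Trdc UMI.

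**Figure D3:**
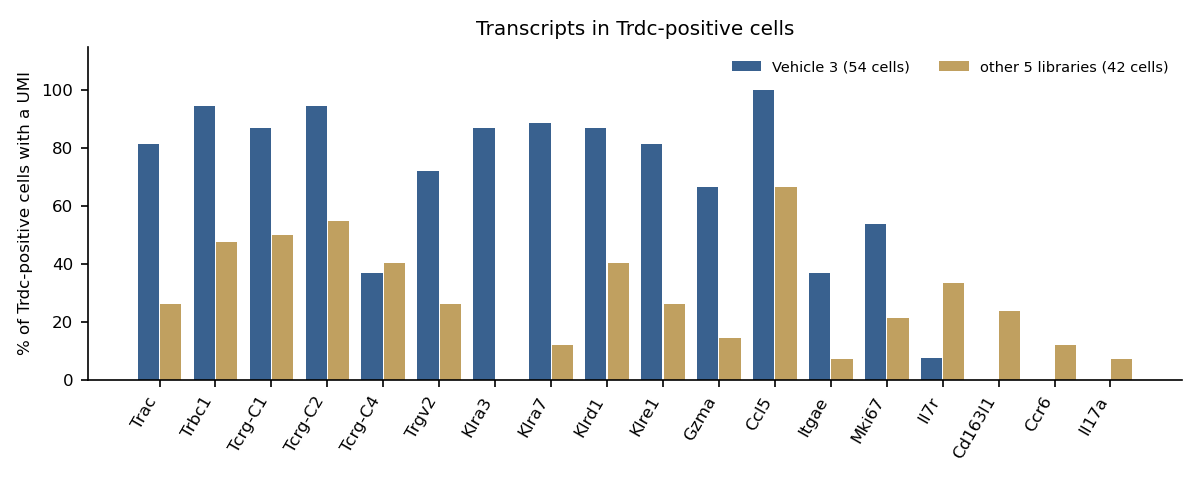
Percent of Trdc-positive CD8-negative T cells (vertical axis) with a UMI of each of 18 genes (horizontal axis), for Vehicle 3 (54 cells) and for the other 5 libraries together (42 cells). Vehicle 3 is higher for the alpha-beta receptor, Klra and cytotoxic genes and at 0 for Cd163l1, Il17a and Ccr6; the genes were chosen after their values were seen.

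Trdc-positive cells were compared with the other members within SH045 2, SH045 3 and Vehicle 3, the 3 libraries with at least 10 of them. These libraries held 17, 10 and 54 Trdc-positive cells, so most came from Vehicle 3, whose cells differed in kind. Of 5909 genes tested with edgeR, 108 passed (1.83%), 28 higher (0.474%) and 80 lower (1.35%) in Trdc-positive cells, and 30.8% of the genes tested moved the same way in all 3 libraries. Without Vehicle 3, 90 genes passed, of which 53 were among the 108. The gamma constant chains led the rises: Tcrg-C1 stood at 529 ± 210 CPM against 11.3 ± 5.89 (SD, n = 3; log2 change 5.49, SE 0.40, edgeR adjusted p = 1.9e-13), and Tcrg-C2, Tcrg-C4 and Trgv2 rose by 4.43, 3.64 and 4.76 on the log2 scale. The constant chains are close copies, so the split of reads among them is uncertain.

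All 3 tested genes of the gamma-delta list rose, and 6 of 9 tested cytotoxic effector genes rose and 0 fell, with a median log2 change of 1.93, where the median of all genes was −0.067. Ccl5 reached 10089 ± 2626 CPM against 1345 ± 451 (SD, n = 3; log2 change 2.89, edgeR adjusted p = 3.1e-15), Klrd1, the CD94 receptor chain, rose by 3.26, Klre1, another lectin-like receptor, by 4.00, and Nkg7, a granule membrane protein, by 1.93. Cd7, a surface protein of T and natural killer cells, rose by 2.64. The calls of Ccl5, Klrd1, Klre1 and Cd7 held with any 1 of the 3 libraries left out.

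Of the T cell receptor signalling list 3 of 15 tested genes fell and 0 rose, with 7 above 0, and of the regulatory list 2 of 8 fell and 0 rose. Cd5 fell by 3.09 on the log2 scale, Cd6 by 2.64 and Icos, a costimulatory receptor, by 2.62. Cd40lg, the ligand with which helper cells license B cells and dendritic cells, fell by 4.06 and Tnfrsf4 by 3.28. Genes of other cells fell as well, 6 of 10 tested tubule genes and 4 of 4 tested fibroblast genes. Col3a1, a collagen of fibroblasts, had 0 UMIs in Trdc-positive cells and 764 in the other members, at least 60.6-fold lower by UMI count. Those UMIs lay in few cells, as only 35 of all 773 members (4.53%) had a UMI of Col3a1. At 5 or more T cell UMIs, 47 genes passed, of which 29 were among the 108. There the same 6 cytotoxic genes rose, 0 of 6 tested tubule genes passed, and no fibroblast gene was left to test. The median log2 change of the tubule genes was then −0.938, where that of all genes was −0.0693. With fewer calls over all genes, the lost tubule calls alone do not show a lost difference.

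SH045 was compared with Vehicle over the summed UMIs of the members of each library. Of 7715 genes tested with edgeR, 3 passed an adjusted p of 0.05 (0.0389%), all lower with SH045, and 807 had an unadjusted p below 0.05. DESeq2 called 57. The libraries of the 2 groups did not overlap for 16.9% of the genes tested, 11.6% higher and 5.26% lower with SH045. None of the 3 called genes belongs to a T cell list, and each is a gene of antigen-presenting or myeloid cells.

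H2-DMb2 (mm10 chromosome 17, 34143307 to 34151555), a chaperone chain that loads peptides onto class II molecules, stood at 8.06, 4.42 and 7.38 CPM with SH045 and at 55.4, 87.0 and 55.2 CPM with Vehicle. Every SH045 library lay far below every Vehicle library (log2 change −3.33, SE 0.38, edgeR adjusted p = 0.005). The UMIs behind this were few, 16 with SH045 and 128 with Vehicle, and lay in 48 of 773 cells. The call held when any 1 of the 6 libraries was left out.

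Csf2ra (chromosome 19, 61223957 to 61228429), the receptor chain for the growth factor GM-CSF, stood at 7.06, 8.84 and 11.8 CPM against 48.9, 63.1 and 39.5 CPM. Cd68 (chromosome 11, 69664213 to 69666153), a lysosomal protein of macrophages, stood at 9.07, 13.3 and 17.7 CPM against 48.9, 87.0 and 62.0 CPM. For both genes all SH045 libraries were below all Vehicle libraries, by −2.52 (SE 0.38) and −2.42 (SE 0.36) on the log2 scale, with an edgeR adjusted p of 0.039 each. Neither call held without SH045 1, SH045 2, Vehicle 1 or Vehicle 2, where the edgeR adjusted p was 0.0619 to 0.155 for Csf2ra and 0.0619 to 0.114 for Cd68. All 3 calls held without the Trdc-positive cells and without the cells with a tubule UMI (edgeR adjusted p = 0.00020 for H2-DMb2, 0.0023 for Csf2ra and 0.0030 for Cd68 in the latter). With every cell thinned to 2000 UMIs, only 1 of the 3 calls held, that of H2-DMb2 (edgeR adjusted p = 0.0136). Cd68 then had a change of −1.97 (edgeR adjusted p = 0.089).

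Among members with at least 5 T cell UMIs, 0 genes passed in edgeR, and the 3 genes were below the filter on low counts, as they already were at 3 or more. Their levels were then 10.02, 4.78 and 4.08 against 12.7, 48.9 and 33.9 CPM for H2-DMb2, still apart, and 6.68, 14.3 and 8.15 against 8.49, 61.2 and 28.7 CPM for Cd68, which overlap. For Csf2ra they were 1.67, 4.78 and 4.08 against 16.97, 24.5 and 20.8 CPM.

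Cd74, the invariant chain that escorts class II molecules, had a UMI in 615 of 773 members and did not pass. It stood at 984, 896 and 2038 CPM with SH045 and 4951, 5759 and 5024 CPM with Vehicle (log2 change −2.06, SE 0.32, edgeR adjusted p = 0.0501). It passed in some alternatives, among them without cells holding a tubule UMI (edgeR adjusted p = 0.00015), and at 5 or more T cell UMIs its change was −1.67 (edgeR adjusted p = 0.48). The 10 dendritic cell markers, none at 0, summed to 770, 719 and 1786 CPM with SH045 and 3272, 4416 and 4028 CPM with Vehicle, and the 10 macrophage markers, none at 0, to 463, 514 and 357 against 711, 1825 and 762 CPM. Both sums separated the groups. At 5 or more T cell UMIs the dendritic sum no longer did (553, 406 and 1316 against 968, 3000 and 2531 CPM), whereas the macrophage sum still did (244, 435 and 354 against 467, 981 and 535 CPM). The 6 plasma cell markers, none at 0, summed to 6251, 218 and 227 CPM with SH045, below 15210, 14200 and 19010 CPM with Vehicle, and were apart at 5 or more T cell UMIs as well. The part of these other cells' transcripts in the called genes was not tested.

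**Figure D4:**
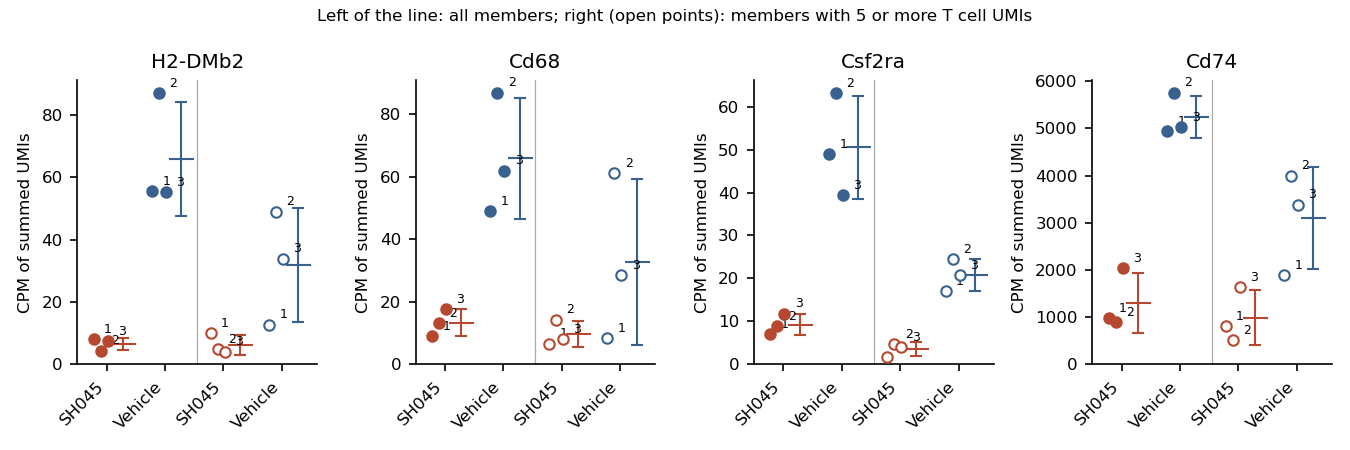
Level in CPM of H2-DMb2, Cd68, Csf2ra and Cd74 in CD8-negative T cells of each SH045 and Vehicle library, over all members (filled) and over members with at least 5 T cell UMIs (open), with mean and SD. All 4 genes separate the groups over all members; at 5 or more T cell UMIs the Vehicle levels are lower in every library, and the 2 groups overlap for Cd68.

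No gene rose with SH045. The genes with the smallest unadjusted p in that direction were Cavin3, Cygb, Gpihbp1, Fkbp7 and Col6a2, and none of them is a T cell gene. Cavin3, a protein of membrane caveolae, stood at 79.6, 41.2 and 19.2 CPM with SH045 and 0, 2.81 and 1.13 CPM with Vehicle (120 against 3 UMIs, a ratio of 32.5 with a counting interval of 10.8 to 160, edgeR adjusted p = 0.0501). Cygb, a globin of stromal cells, had 139 against 3 UMIs (ratio 37.6, interval 12.6 to 185, edgeR adjusted p = 0.063). Beside these, the 7 fibroblast markers, none at 0, summed to 9670, 1697 and 1505 CPM with SH045 and 16.3, 310 and 352 CPM with Vehicle, in 9.19% of the members. At 5 or more T cell UMIs that sum overlapped (245, 28.7 and 477 against 16.97, 451 and 6.51 CPM, with Lum at 0). The 6 endothelial markers (117, 88.4 and 79.7 against 22.8, 37.9 and 12.4 CPM) and the 5 neutrophil markers (227, 669 and 117 against 97.9, 9.82 and 24.8 CPM), none at 0, separated the groups both over all members and at 5 or more T cell UMIs. The part of stromal, endothelial and neutrophil transcripts in these genes was not tested.

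Among the lists of T cell genes 0 genes rose and 0 fell with SH045. The regulatory list had a median log2 change of −0.587 over 11 tested genes, the 10 cytotoxic genes −0.551 and the 4 gamma-delta genes −1.43, beside a median of 0.0115 over all genes. The gamma-delta value rested on Vehicle 3: without it Trdc was at −0.36 and Tcrg-C2 at −0.14. The naive and central memory list stood at 0.856 over 8 genes, the interferon response list at 0.0997 over 16, the cell cycle list at −0.338 over 16 and the T cell receptor signalling list at −0.0782 over 15. As 16.9% of all genes separated the groups, a list member that does so without passing the test is no result.

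Several abundant list members separated the groups in this way. Tnfrsf4 stood at 92.7, 134 and 156 CPM with SH045 and 287, 161 and 328 CPM with Vehicle, and Klrg1 at 62.5, 97.2 and 29.5 against 316, 109 and 246 CPM. Both were lower in every SH045 library than in any Vehicle library, yet neither passed (log2 changes −1.08 and −1.87, edgeR adjusted p = 0.21 and 0.32). Gzma stood at 170, 178 and 127 against 1272, 105 and 1649 CPM, with Vehicle 2 below all SH045 libraries (edgeR adjusted p = 0.50).

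Ifng, the type 1 helper cytokine interferon gamma, was at 91.7, 61.9 and 81.2 CPM with SH045 and 22.8, 53.3 and 59.8 CPM with Vehicle, again apart and again not past the test (log2 change 0.64, edgeR adjusted p = 0.50). Tcf7, a transcription factor of naive and memory T cells chosen here after its values were seen, was at 135, 88.4 and 105 CPM against 88.1, 70.1 and 56.4 CPM, with SH045 2 and Vehicle 1 almost level (edgeR adjusted p = 0.44). Trbc2 at 900, 934 and 1014 against 1442, 875 and 1405 CPM, and Thy1, a pan-T cell surface protein, at 602, 424 and 605 against 489, 380 and 443 CPM, overlapped.

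The compound's named target was not seen in these cells. Trpc6 had 0 UMIs in all 773 members. With 3 cells taken as the limit for a count of 0, this allows a share of cells with a UMI of up to 0.388%. That limit is not the exact interval used for the shares above. Trpc1, a channel of the same family, had 15 UMIs in all. The 16 genes of the list of TRPC channels and store-operated calcium entry, the route by which antigen receptor signals raise calcium in T cells, summed to 607, 498 and 514 CPM with SH045 and 470, 376 and 417 CPM with Vehicle.

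The calcium list's sums did not overlap, as was so for 8 of the 29 lists over all members. The others were the naive and central memory list and the macrophage, dendritic cell, plasma cell, neutrophil, fibroblast and endothelial markers. The calcium sums were also apart at 5 or more T cell UMIs (650, 507 and 564 against 505, 394 and 376 CPM) and in CD8-positive T cells (622, 492 and 526 against 392, 369 and 359 CPM), where 8 and 11 of the 29 lists were apart. The naive and central memory, macrophage and plasma cell lists were likewise apart in each of these sets of cells. All of these values come from the same 6 mice. None of the 11 tested genes passed in edgeR, 9 were above 0 and their median log2 change was 0.384. Itpr2, which releases calcium from the endoplasmic reticulum, was at 87.7, 89.9 and 97.4 CPM against 71.8, 33.7 and 56.4 CPM (edgeR adjusted p = 0.36). Orai1, the pore of store-operated calcium entry, was at 55.4, 47.1 and 59.0 against 91.3, 43.5 and 65.4 CPM, and overlapped (edgeR adjusted p = 0.75).

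Helper cytokines were sparse. Il17a had UMIs in 0.776% of members, at 14.1 CPM in SH045 1, 470 CPM in Vehicle 1 and 0 in the other 4 libraries, so its sum is that of a few cells. Il4 was seen in 3 members, Il13 in 2, Il5 in 1 and Il10 in 4. Ifng was seen in 132 and Tgfb1, the profibrotic cytokine that also shapes regulatory T cells, in 269 of 773. Tgfb1 stood at 96.8, 134 and 111 CPM with SH045 and 134, 95.4 and 121 CPM with Vehicle, and the groups overlapped.

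Whether SH045 acted differently in CD8-negative and CD8-positive T cells was tested as a difference of the 2 changes. Of 6597 genes, 4 passed in edgeR (0.0606%), 376 had an unadjusted p below 0.05 and DESeq2 called 3. The 4 genes are haemoglobin chains, a growth factor and a tubule protease, none of them in a T cell list, and 0 passed at 5 or more T cell UMIs.

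CD8-negative T cells were last set beside the 347 CD8-positive T cells of the same 6 libraries, paired within library. Of 5383 genes tested, with the genes of the rule left out of the counts, 385 passed in edgeR (7.15%), 162 higher (3.01%) and 223 lower (4.14%) in CD8-negative cells, and 13.0% moved the same way in all 6 libraries. By list, 4 regulatory, 2 type 17, 3 tubule and 2 fibroblast genes were among the higher ones, and 16 ribosomal protein, 11 cell cycle and 5 cytotoxic genes among the lower ones.

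Cd4 stood at 113, 122, 136, 88.1, 91.2 and 91.3 CPM in the CD8-negative cells of SH045 1 to 3 and Vehicle 1 to 3, and at 13.2, 0, 17.4, 4.67, 36.9 and 19.5 CPM in the CD8-positive cells. It was higher in the CD8-negative cells of all 6 libraries (log2 change 2.83, edgeR adjusted p = 0.00045). Tnfrsf4 stood at 193 ± 92.7 against 36.0 ± 24.9 CPM (SD, n = 6; log2 change 2.24, SE 0.33, edgeR adjusted p = 0.0039). Of the 7 tested genes of the regulatory list, 4 rose and 0 fell, with a median of 0.926, where all genes had −0.00241. The others that rose were Izumo1r (1.64), Tnfrsf18 (0.69) and Nrp1 (1.09), and Nrp1, a surface co-receptor, did not pass at 5 or more T cell UMIs (edgeR adjusted p = 0.32). In the type 17 list 2 of 4 rose, Rora (1.25), a nuclear receptor, and Maf (1.27), a transcription factor. At 5 or more T cell UMIs the change of Maf was 1.44, but it did not pass (edgeR adjusted p = 0.18).

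Of 9 tested cytotoxic effectors 5 fell and 0 rose, with a median log2 change of −1.28. Gzmb, the granzyme that triggers apoptosis in target cells, stood at 66.5, 58.9, 57.6, 42.4, 2.81 and 55.2 CPM in the CD8-negative cells of SH045 1 to 3 and Vehicle 1 to 3. In the CD8-positive cells it stood at 173, 233, 265, 322, 79.0 and 469 CPM, higher in each library (log2 change −2.45, edgeR adjusted p = 0.0016). Gzmk, another granzyme, fell by 2.21, Nkg7 by 1.61, Cst7, an inhibitor of granule proteases, by 1.28 and Ctsw, a cathepsin of cytotoxic cells, by 1.11. Gzma did not differ beyond its spread (log2 change 0.33, SE 1.46, edgeR adjusted p = 0.93).

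Other falls were those of Dapl1 (−4.48), Ly6c2 (−2.50), a surface protein of memory CD8 cells, Cd160 (−1.81), a receptor of cytotoxic lymphocytes, and Cd27 (−1.70), a costimulatory receptor. At 5 or more T cell UMIs 68 genes passed, 54 of them among the 385. Gzmb, Gzmk, Cst7 and Ctsw still fell there, by 2.17, 1.75, 0.87 and 0.72 on the log2 scale, whereas Nkg7 did not pass (edgeR adjusted p = 0.071), and Tnfrsf4, Izumo1r and Tnfrsf18 rose by 2.92, 2.103 and 1.09.

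The T cell UMI limit changed the calls in other lists. Calls over all genes dropped with it from 385 to 68, so a lost call alone does not show a lost difference. Over all members, 11 of 16 cell cycle genes fell against CD8-positive cells (median −0.603), and at 5 or more T cell UMIs 2 did, Pclaf and Tubb5 (median −0.236). Mki67 changed from −0.38 (edgeR adjusted p = 0.046) to 0.0012 (edgeR adjusted p = 1.0). Ribosomal protein genes fell in 16 of 20 cases (median −0.34) and then in 2. Their median was still −0.204 at the higher limit, where that of all genes was −0.00613. Tubule genes rose in 3 of 12 cases (median 1.29), with Umod, the urinary protein uromodulin, at 4.01, and then in 0 of 10 (median −0.0197).

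The T cell receptor signalling list turned with the limit as well. Over all members 1 of its 15 tested genes rose and 7 fell. At 5 or more T cell UMIs 3 rose, Cd5 (1.08), Icos (1.16) and Trbc1 (0.65), and 2 fell, Trbc2 (−0.37) and Ptpn22 (−0.54), a phosphatase that dampens receptor signals. CD8-positive cells had to hold an additional UMI of Cd8a or Cd8b1, which the rule does not ask of the CD8-negative cells, and the part of this in the differences was not tested.

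**Figure D5:**
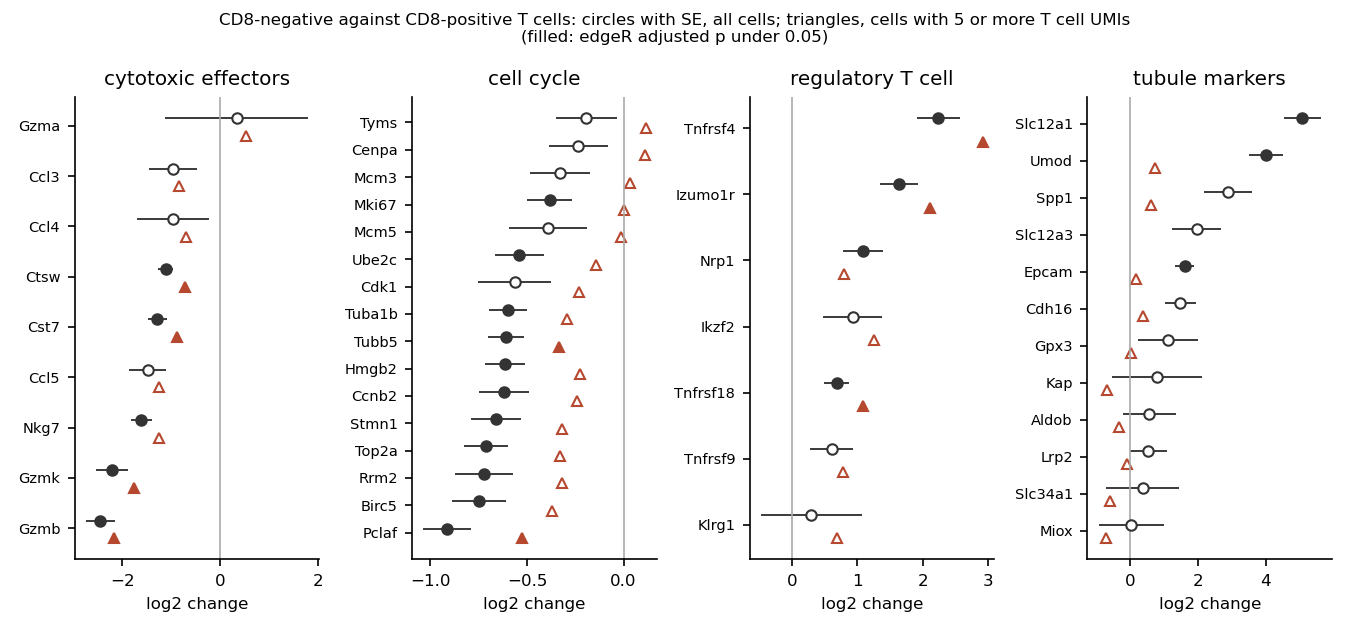
Log2 change of CD8-negative against CD8-positive T cells (horizontal axis) for each tested gene of the cytotoxic effector, cell cycle, regulatory T cell and tubule lists, over all cells (circles, with standard error) and over cells with at least 5 T cell UMIs (triangles); filled symbols passed an edgeR adjusted p of 0.05. Gzmb lies to the left at both limits (−2.45 and −2.17), Gzma to the right without passing (0.33 and 0.52), and Tnfrsf4 to the right (2.24 and 2.92), while Umod is at 4.01 and then at 0.75 without passing.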

How the data were processed

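The authors deposited, for each of 6 libraries, a matrix of whole-number UMI counts per gene and barcode. Per the submitters' processing notes the build was mm10; for the aligner, counter, annotation and cell calling, each is not given in the sources used here. Gene positions are those of the mouse annotation of that build. The rule for members and the gene lists were chosen with earlier results of these data known. UMI counts of members were summed per library and tested with edgeR 4.0.16 under R 4.3.3 (quasi-likelihood test with robust dispersion, TMM scaling, the default filter on low counts, Benjamini-Hochberg limit 0.05), with library as a block for comparisons of cell groups. Subsets needed at least 10 cells on each side in at least 3 libraries. Shares were computed after each cell was thinned to 2000 UMIs and compared by two-sided exact permutation tests over mice.

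Natural killer and tubule gates needed at least 2 UMIs of their marker genes. These gates and the macrophage gate, with more than 5 C1q UMIs, took only barcodes without a T cell UMI. The tubule gate also took only barcodes without a Ptprc UMI. Genes named were Cd4, Foxp3 and Trdc, up to 10 largest rises and 10 largest falls among called genes that moved alike in all libraries, 5 genes with the smallest unadjusted p where fewer than 5 were called, and the 3 most abundant members of each list; gene models without a symbol, sex-linked transcripts, immunoglobulin genes and genes of the rule were left out. Of those, stromal and tubule genes are given mostly through their lists. List members named beyond this rule were chosen after their values were seen. The scripts were tested on simulated data. Alternatives were DESeq2 1.42.0, other size factors, no filter, a length trend removed, a mitochondrial limit of 20%, 1000 UMIs, removal of the top 5% of Scrublet scores (scanpy 1.11.5), other T cell UMI limits, no C1q UMIs, the replicate number as a block, and each library left out.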

Additional observations from a re-analysis of the deposited data

Results flagged for a closer look

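The change with SH045 differed between CD8-negative and CD8-positive T cells for 4 genes by an interaction term in edgeR, and the values below are the log2 change in CD8-negative cells minus that in CD8-positive cells. For Hba-a2 and Hbb-bt, haemoglobin chains of red cells, the differences were 6.68 and 5.37. Hba-a2 stood at 377, 4.42 and 1856 CPM in the CD8-negative cells of SH045 1 to 3 and at 4619, 2.81 and 5.64 CPM in those of Vehicle 1 to 3, against 5.65, 0 and 17.4 CPM and 5680, 0 and 11.7 CPM in the CD8-positive cells, so that 1 or 2 libraries carry each group's level. For Igf1, a growth factor, the difference was 10.2, from 152, 3 and 33 UMIs against 0 in all Vehicle libraries in CD8-negative cells, and from 5, 0 and 0 against 0, 0 and 9 UMIs in CD8-positive cells, in 14 and 5 cells with a UMI. For Klk1, a kallikrein protease of the tubule, the difference was 2.76, and this call was lost in 4 of the 6 fits that left out 1 library. None of the 4 passed at 5 or more T cell UMIs.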

How the results depend on the processing

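Differences in the shares of members, Cd4-positive and Foxp3-positive cells kept their direction in every alternative run; only the Trdc difference turned, to 4.02 points without Vehicle 3 (range over left-out libraries −11.51 to 4.02). For SH045 against Vehicle, 3 genes were called, and 57 with DESeq2, 282 without the filter, 11 without high Scrublet scores, 1 at 3 or more T cell UMIs, 15 without C1q UMIs, 9 after thinning (only 1 of the 3 among them), 33 without tubule UMIs, 0 at 5 or more T cell UMIs, and 1 to 45 with a library left out (45 without SH045 3, 20 without Vehicle 3). For the difference of the SH045 changes, 4 genes became 54 without the filter, 2 without high Scrublet scores, 1 without C1q UMIs, 0 at 5 or more T cell UMIs, and 2 to 35 with a library left out. Against CD8-positive cells, 385 became 201 with DESeq2, 784 without the filter, 72 without C1q UMIs, 68 at 5 or more T cell UMIs, and 150 to 571 with a library left out (186, 173 and 150 without SH045 1, 2 and 3, and 224 without Vehicle 2). For Trdc-positive cells, 108 became 59 with DESeq2, 168 without high Scrublet scores, 41 without C1q UMIs, 47 at 5 or more T cell UMIs, and 81 to 180 with a library left out (180 without SH045 3, and 90 without Vehicle 3, 53 of them among the 108). The causes were not tested. With the replicate block, SH045 against Vehicle called 31 genes, the 3 included; the numbers share no stated origin, same-numbered libraries correlated at −0.0793, 0.119 and 0.197, and SH045 1 correlated best with Vehicle 2 (0.145), so the pairing was not used. Of 2202 values of named genes under alternatives, 0 changed sign with a call in either fit, 90 changed sign without one, 49 lost a call and 73 gained one. Few cells per library limit all of these values, above all for Foxp3 and Trdc.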
